A study of Mus musculus with 24 samples.

Results

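Homeostatic microglia genes is the name of a group of transcripts used to describe resting microglia of the healthy brain. The 9 members described here are P2ry12, Tmem119, Cx3cr1, Siglech, Gpr34, Selplg, Trem2, Sall1 and Gpr84, taken by symbol from 54235 features. Each symbol was found for 1 feature, and all are protein-coding genes. They were measured in single cells of motor cortex and dorsal striatum, 2 brain regions used in skilled movement. Mice carried the tdTomato reporter Ai9 with a tamoxifen-inducible Cre. The motor cortex came from Fos-CreER mice and the striatum from Arc-CreER mice, so region and driver cannot be told apart. The drivers mark active neurons and were not aimed at microglia. Early mice had 2 days and late mice 8 days of forelimb reaching. Controls were untrained, and every mouse was given 4-hydroxytamoxifen, with tissue taken 3 days after labelling. Each of the 12 pools joined 2 mice, and each region and stage had 2 pools, sequenced by hemisphere.

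Microglia are the resident immune cells of brain tissue, and they survey it through surface receptors. P2ry12 is a receptor for nucleotides released by damaged cells, and Cx3cr1 is the receptor for the neuronal chemokine Cx3cl1. Gpr34 is a lysophospholipid receptor, Selplg a selectin ligand, Siglech a sialic acid-binding lectin, and Trem2 a lipid-sensing receptor that signals through Tyrobp. Sall1 is a transcription factor of microglial identity, Tmem119 is a membrane protein used to tell microglia from other macrophages, and Gpr84 is a fatty acid receptor known to rise in inflammation. Activated microglia are known to lose several of these transcripts while they make cytokines such as Tnf and Ccl3. Both cytokines are also known to appear when tissue is dissociated with warm enzymes, and these samples were digested with papain.

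Matrices were read for 23 of 24 libraries, which held 5260446 to 30470621 UMIs (unique molecular identifiers, counts of captured RNA molecules). The right hemisphere of dorsal striatum control pool 1 was not analysed here. After filtering, 98612 cells remained. Cells were clustered without the members, Tnf, Ccl3 or Ccl4, and a cluster was named from other markers, so "-like" is used throughout. Microglia-like cells numbered 10191 in motor cortex (21.2% of cells) and 5033 in striatum (9.94%), with 673 to 4308 per pool. Macrophage-like cells numbered 596 and 284. Libraries were cut into 2 groups by the barcodes they shared, called kit classes here, although the labels name no kit. Class A held 4 pools (control and late pool 1 of each region) and class B the other 8. The share of a library's barcodes found in another library was at most 1.55%. The microglia-like cells of the classes fell in different clusters: clusters 3 and 10 of motor cortex and 14 of striatum were 95.6%, 97.3% and 96.1% class A, while clusters 5, 9, 11 and 13 were 0.595% to 3.51% class A. Levels are given as CPM, the UMIs of a gene in a class of a pool over all UMIs of that class and pool, times 1000000. CPM compares 1 gene across samples, not 2 genes with each other. The 9 macrophage markers used for naming (Mrc1, Pf4 and others) summed to 110.2 to 214.3 CPM per pool in microglia-like and 9282 to 17227 CPM in macrophage-like cells.

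The members lie on 8 chromosomes (GRCm38, GENCODE M21). P2ry12 is at chromosome 3, 59216272 to 59262871, inside Med12l on the other strand. Tmem119 (chromosome 5, 113793729 to 113800516) and Selplg (chromosome 5, 113818536 to 113832644) are neighbours on the minus strand, 18019 bases apart. Siglech is at chromosome 7, 55768178 to 55778925, and Sall1 at chromosome 8, 89027235 to 89044162. Cx3cr1 is at chromosome 9, 119901616 to 120069879, a span that overlaps 9 other annotated genes. Gpr84 is at chromosome 15, 103308235 to 103310612, across from the antisense gene Gm49482. Trem2 is at chromosome 17, 48346401 to 48354147, and Gpr34 at chromosome X, 13632089 to 13640858, inside Cask on the other strand. Whether counting used strand is not given in the sources used here. The part of overlapping genes in the reads of P2ry12, Gpr84, Cx3cr1 and Gpr34 was not tested. Outside the macrophage lineage, the highest cell class medians in motor cortex were 10.1 CPM (P2ry12), 4.7 (Gpr84), 37.3 (Cx3cr1) and 9.06 (Gpr34). In striatum they were 16.1, 2.21, 11.3 and 5.2. Each was at most 1.8% of the microglial median of its gene.

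The members were microglial genes in both regions, and Trem2 was the member most shared with macrophage-like cells. For each of the 9 members and in each of the 12 pools, the level was higher in microglia-like than in macrophage-like cells. Cells had been named from other genes, but the classes were formed by clustering, so these are descriptions with no test. How many of all genes also separate these classes was not counted.

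Tmem119 ranged from 554.1 to 1038 in microglia-like cells of the 6 motor cortex pools and from 3.24 to 13.5 in macrophage-like cells. In striatum it ranged from 617.3 to 965.2 in microglia-like cells, and 4 of 6 macrophage-like pools held no UMI. Sall1 was the other member close to absent from macrophage-like cells, with 1 UMI in each region over all pools. It was at 54.5 to 162.1 in microglia-like cells of motor cortex and 48.5 to 219.2 in striatum. The groups of pools did not overlap for either gene.

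P2ry12 was at 1254 to 1925 in microglia-like cells of motor cortex and 53.8 to 94.1 in macrophage-like cells. Over all pools this was a ratio of 19.6 (95% Poisson interval of the macrophage count, 16.5 to 23.3), and in striatum 14.6 (11.5 to 18.7). These intervals cover counting error only. Cx3cr1 had ratios of 44 and 62.3, Selplg 38.8 and 21.1, and Gpr34 14.9 and 11.7, in motor cortex and striatum. Gpr84 had ratios of 26.9 and 35.2. Siglech had 25.3 in motor cortex and 7.97 in striatum, where every macrophage-like pool was at 141.4 to 168.5, against 19.4 to 80.7 in motor cortex.

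Trem2 was at 1878 to 2264 in microglia-like and 447.0 to 625.5 in macrophage-like cells of motor cortex, a ratio of 3.76 (3.52 to 4.02). In striatum the ranges were 2129 to 2427 and 549.7 to 1058, a ratio of 3.04 (2.78 to 3.33). Its partner Tyrobp, the signalling adaptor, was at a median of 2812 in microglia-like and 2158 in macrophage-like cells of motor cortex, and at 2529 and 2628 in striatum.

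The macrophage-like cluster of striatum was not pure. T and NK cell markers summed to 8.97 to 227.5 CPM in its pools, monocyte markers to at most 477.3 and B cell markers to at most 224.7. In motor cortex the 4 monocyte markers were at 0 and the T and NK cell markers reached 6.73. The part of these cells in the striatal macrophage values was not tested.

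**Figure D1:**
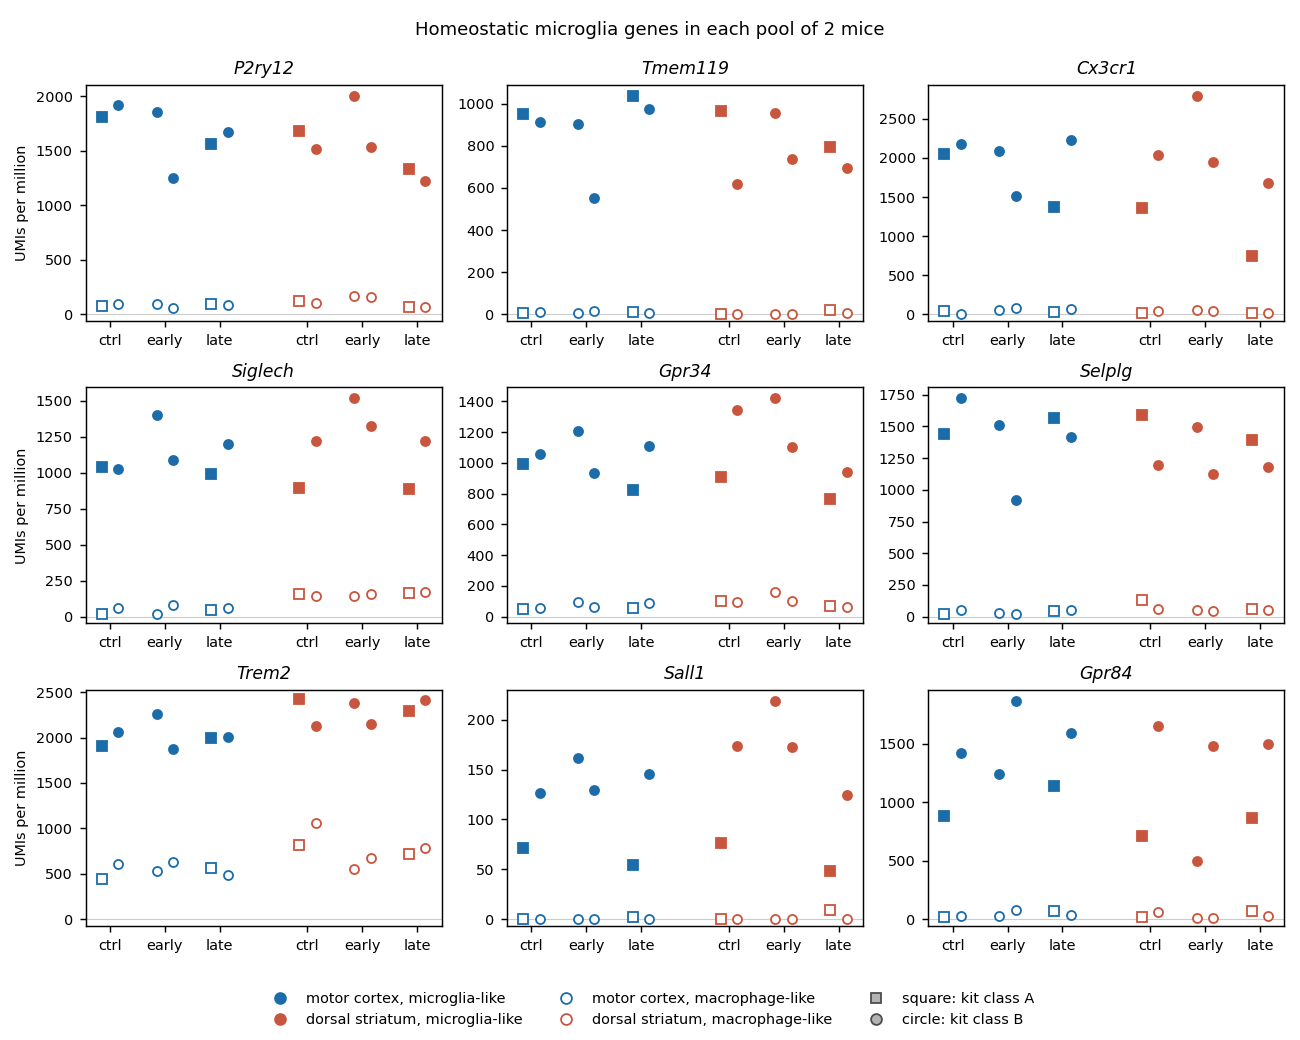
Level of each member (y axis, CPM) in each pool by region and stage (x axis). Filled marks are microglia-like and open marks macrophage-like cells, and squares are kit class A. Filled marks lie above open marks in all pools, and squares are the lowest filled marks for Sall1 in both regions.

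Outside the macrophage lineage the medians of the members were near 0, with exceptions for Sall1, Tmem119 and Selplg. Sall1 had a median over pools of 40.6 in astrocyte-like cells of motor cortex and 42.3 in those of striatum, and of 57.5 in ependymal-like cells, 38.7% of its microglial median. Tmem119 was at 126.1 in fibroblast-like cells of motor cortex (13.5% of its microglial median) and 56.1 in those of striatum. Selplg was at 190.3 in the lymphocyte-like cells of motor cortex, a class with only 64 cells in 2 pools. The other 6 members had no such class with a median above 1.8% of the microglial median. Single pools could be higher. The highest value of an astrocyte-like pool in motor cortex was 332.0 for Cx3cr1, 141.7 for P2ry12 and 89.1 for Trem2. For Gpr34, Siglech and Gpr84 it was 76.9, 68.8 and 64.8.

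Of the ligands of microglial receptors, Cx3cl1 and Il34 were highest in other cell classes. Cx3cl1 was highest in neurons, with a median of 506.6 in glutamatergic neuron-like cells of motor cortex and 583.0 in spiny projection neuron-like cells, against 11.4 and 9.06 in microglia-like cells. Il34, a ligand of the survival receptor Csf1r, was highest in fibroblast-like cells (757.2 and 437.8) and then in mural-like cells (265.8 and 262.9). Csf1, the other ligand of that receptor, was highest in the microglia-like cells themselves (240.4 and 209.9). Tgfb1, which keeps microglia in their resting state, was also highest there (465.6 and 380.5), and the ranges of its pools lay above those of macrophage-like cells in striatum but not in motor cortex.

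**Figure D2:**
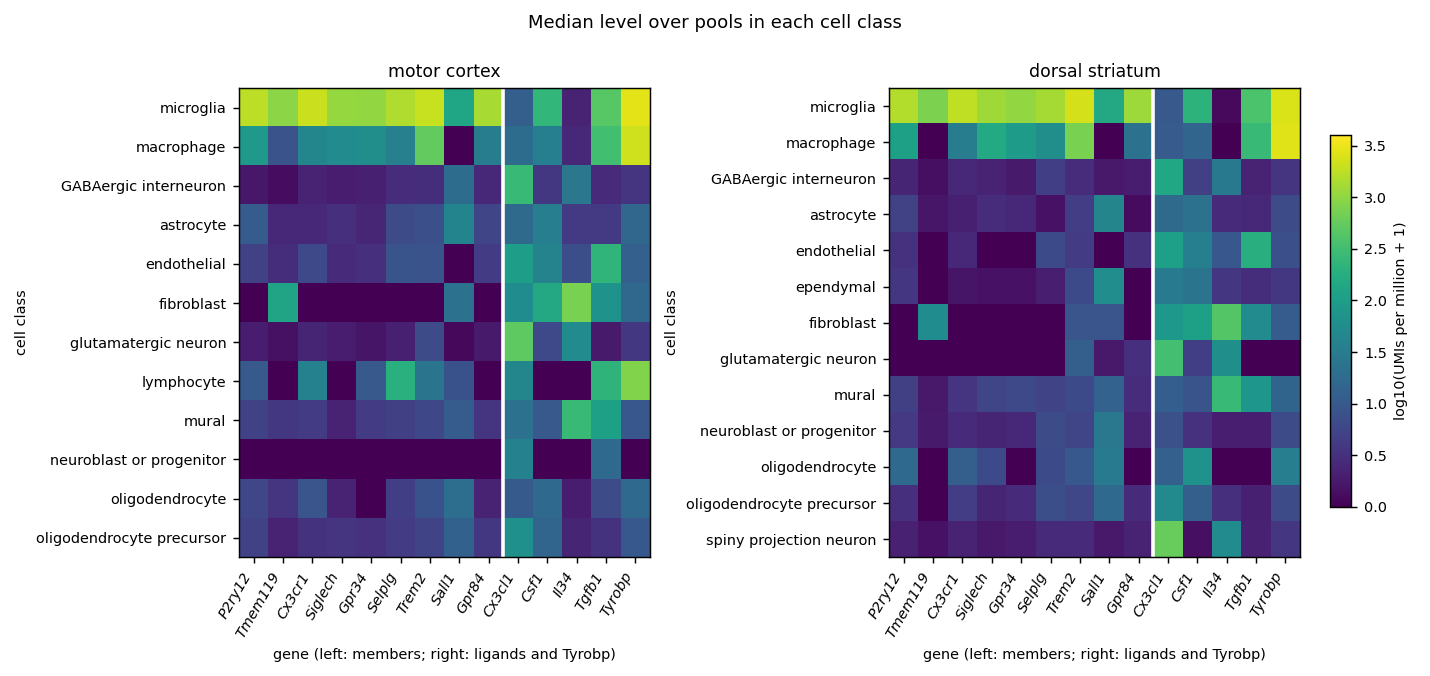
Median over pools of each member, the ligands and Tyrobp (x axis) in each cell class (y axis), as log10 of CPM plus 1. The microglia-like row is bright for all 9 members, and the macrophage-like row is bright for Trem2 and Tyrobp.

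In every pool of motor cortex, over 50% of microglia-like cells held a UMI of each member but Sall1. The share of cells with a Trem2 UMI was 88.7% to 98.1% per pool in motor cortex, of Cx3cr1 83.0% to 94.9% and of P2ry12 79.0% to 93.2%. In glutamatergic neuron-like cells, which should lack them, the shares were 2.64% to 7.22%, 0.574% to 2.92% and 0.493% to 3.06%, at a median depth of 7396 UMIs against 1820 in microglia-like cells. Siglech was seen in 71.9% to 95.1%, Selplg in 67.6% to 90.5%, Gpr34 in 65.9% to 86.4% and Gpr84 in 56.3% to 82.1% of microglia-like cells, and each of these in at most 2.44% of the neuron-like cells. Tmem119 was seen in 50.7% to 75.5% and Sall1 in 9.73% to 33.2%, against 0.145% to 1.48% and 0.0906% to 0.535% in neuron-like cells. In striatum the shares ran from 6.39% to 34.0% for Sall1, from 42.5% to 80.6% for Gpr84 and from 54.1% to 97.6% for the other members, with at most 1.17% in spiny projection neuron-like cells (median depth 4297 UMIs). With each motor cortex cell thinned to 1000 UMIs, Sall1 was seen in 5.48% to 15.9% and Tmem119 in 37.9% to 57.4% of cells, so depth sets part of these shares.

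The level of several members differed between the kit classes. These classes were inferred from shared barcodes, and no label names the kit of a library. No labelled batch holds pools of both classes, so kit and batch cannot be told apart here. Sall1 was at 54.5 and 71.3 in the class A pools of motor cortex and at 126.6 to 162.1 in those of class B. In striatum the class A pools were at 48.5 and 76.0 and class B at 124.8 to 219.2. Gpr84, Gpr34, Cx3cr1 and Siglech were lower in both class A pools of striatum than in every class B pool, apart from Gpr84 in early pool 1 (493.5). In motor cortex this order held for Gpr84 (880.8 and 1136 in class A, 1240 to 1869 in class B). It did not hold there for Gpr34, Cx3cr1 and Siglech. P2ry12, Selplg, Tmem119 and Trem2 did not show this order. Class A holds no early pool, and the fits below carry kit class as a term.

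Training stage was compared first, with the pool as the replicate. No member was called in any stage comparison of microglia-like cells (edgeR quasi-likelihood test, Benjamini-Hochberg adjusted p under 0.05). In motor cortex all 9 were tested among 10006 genes, of which 0% were called in each of the 3 comparisons. In striatum 9851 genes were tested, of which 0% were called between early and control and 0.0102% (1 gene) in each comparison with late pools. At an unadjusted p under 0.05 there were 0 members in motor cortex and 1 (Sall1) in each striatal comparison with late pools. DESeq2 called 0 members in all 6. The spread behind these tests is that between pools of 2 mice.

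Sall1 was at 76.0 and 173.6 in the striatal control pools, 219.2 and 172.5 in the early pools and 48.5 and 124.8 in the late pools. The late pools lay below their same-kit controls, but the groups overlapped. The fitted log2 change of late over control was -0.59 (SE 0.246, 95% interval -1.12 to -0.05), with an edgeR adjusted p of 0.93. Cx3cr1 was at 1358 and 2042 in control, 2796 and 1951 in early and 739.4 and 1684 in late pools of striatum. Its change of late over control was -0.63 (SE 0.3, interval -1.29 to 0.02, edgeR adjusted p 0.94). In motor cortex the same changes were -0.02 (interval -0.53 to 0.49) for Sall1 and -0.21 (-0.74 to 0.32) for Cx3cr1.

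P2ry12 was at 1809 and 1925 in motor cortex controls, 1857 and 1254 in early pools and 1564 and 1677 in late pools. Early pool 2 was the lowest of the region for P2ry12, Tmem119 (554.1), Selplg (917.8) and Trem2 (1878), and the highest for Gpr84 (1869) and for Tnf (3493.5). Trem2 moved by at most 0.15 on the log2 scale. Its changes in motor cortex were 0.15, 0.08 and -0.07 for early over control, late over control and late over early, and in striatum -0.11, -0.01 and 0.10. In striatum Gpr84 was at 715.0 and 1654 in control, 493.5 and 1480 in early and 861.8 and 1499 in late pools, and its change of early over control was -0.73 (interval -1.76 to 0.31). In motor cortex the estimate for Gpr84 was 0.32 (interval -0.38 to 1.02). Without striatal early pool 2, Gpr84 was called lower in early than control (-1.9, edgeR adjusted p 0.0332) and higher in late than early (1.87, edgeR adjusted p 0.0201), which leaves 1 early pool that is assumed to vary like the others.

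The labels also name 6 batches, each of 2 pools. In 4 of them a control pool is joined by a trained pool of the same region, and the other 2 join both regions at 1 stage. Within a region, batch as a term would leave no spread to test against, so the pairs are given as values. Late pools lay below the control pool of their batch for Cx3cr1 (log2 ratio of CPM -0.59 in motor cortex and -0.88 in striatum) and for Sall1 (-0.39 and -0.65). The order was the same for Gpr34 (-0.27 and -0.25), P2ry12 (-0.21 and -0.34) and Siglech (-0.07 and -0.00). Tmem119, Selplg and Trem2 were higher in the late pool in motor cortex and lower in striatum, and Gpr84 was higher in both. The early pool lay below its control for Gpr84, by -0.20 in motor cortex and -1.74 in striatum.

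Batch could be a block where all 12 pools were fitted together, with a term for region, a fit added after the data were seen. It called 0 members and 0% of 9881 genes in each stage comparison, and DESeq2 called 0 members. At an unadjusted p under 0.05 there was 1 member between early and control (Gpr84), and there were 2 between late and control (Cx3cr1 and Sall1) and 3 between late and early (the same 3 genes). Cx3cr1 changed by -0.77 from control to late (SE 0.267, interval -1.35 to -0.19, edgeR adjusted p 0.646). Sall1 changed by -0.51 (SE 0.227, edgeR adjusted p 0.748). Gpr84 changed by -1.05 from control to early (SE 0.356, interval -1.82 to -0.28, edgeR adjusted p 0.662).

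**Figure D3:**
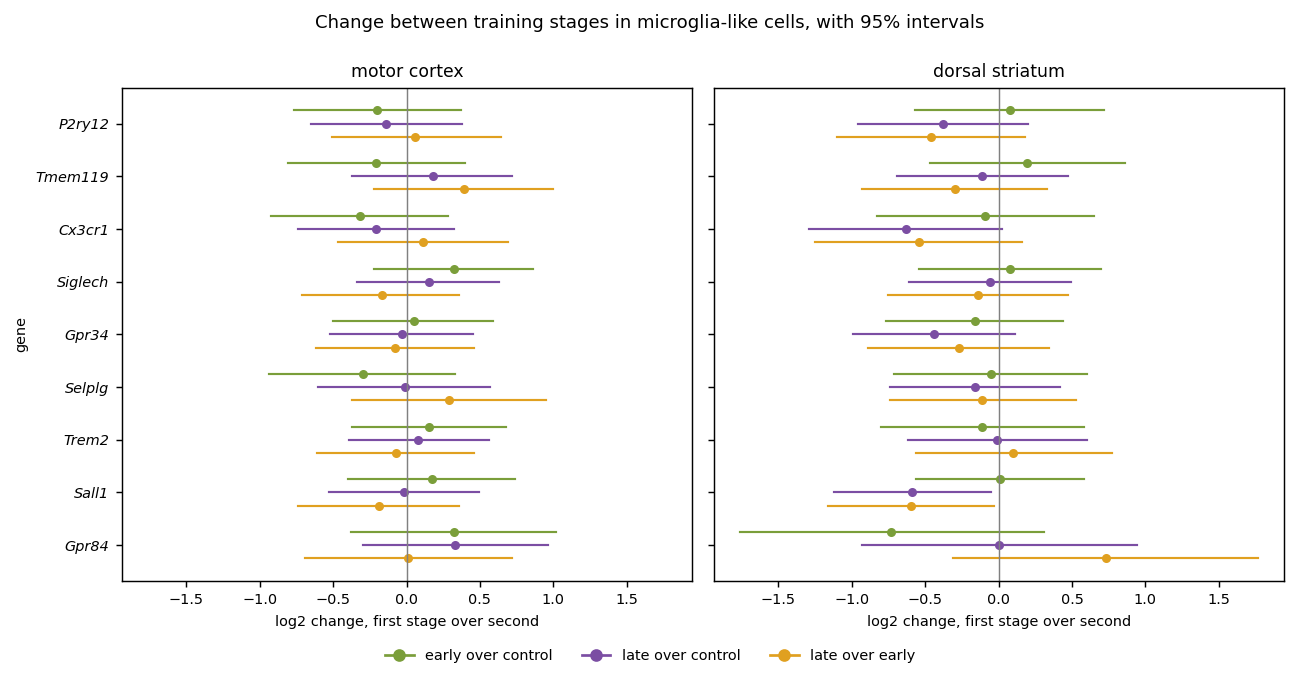
Fitted log2 change of each member (y axis) between stages in microglia-like cells, with 95% intervals (x axis). All but 2 of the intervals span 0, and the 2 that do not, both of Sall1 in striatum, belong to changes with adjusted p of 0.93 and 0.897.

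Other homeostatic genes were not called either. Of 30 further homeostatic genes (P2ry13, Csf1r and others), 0 were called in any stage comparison, and their median change was between -0.11 and -0.00, against -0.01 to 0.02 for all genes. At an unadjusted p under 0.05 there were 0 of 30 in motor cortex and at most 2 of 30 in striatum, and DESeq2 was not counted over this list. In late over control striatal pools, the estimate was below 0 for 8 of 9 members (median -0.16) and 22 of 30 others (median -0.10), against a median of -0.01 over all genes. Without late pool 1 it was below 0 for 5 of 9 members (median -0.08) and 14 of 30 others (median 0.02). In that pool, microglia-like cells held neuron markers at 1167 CPM, against 115.6 to 241.3 in the other striatal pools, and astrocyte markers at 293.1, against 32.2 to 59.9. In the comparison with all pools, 4 of 4 neuron markers (median 1.09) and 2 of 2 astrocyte markers tested (median 1.36) had estimates above 0, and 18 of 20 genes of dissociation and early activation had estimates below 0 (median -0.38), with 0 called. Their part in the members' estimates was not tested.

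Macrophage-like cells gave no call for a member either. Of the 9 members, 7 passed the filter on low counts in motor cortex (not Tmem119 and Sall1) and 4 in striatum (P2ry12, Siglech, Gpr34 and Trem2), so these counts do not cover the full set. In motor cortex 0%, 0.0938% and 0% of 3199 genes were called for early over control, late over control and late over early. In striatum 0.107%, 0% and 0.213% of 1877 genes were called. Unadjusted p was under 0.05 for 0 members in motor cortex, for 1 (Trem2) in early over control and for 1 (P2ry12) in late over early in striatum, and DESeq2 called 0. Macrophage-like P2ry12 was at 116.5 and 103.8 in striatal control, 164.9 and 155.1 in early and 62.8 and 63.2 in late pools. These groups of 2 pools did not overlap, but the late pools held only 7 and 9 UMIs. How many of the 1877 genes tested also separate was not counted. The part of other cells in this cluster, described above, was not tested. For P2ry12 the change of late over early was -1.35 (SE 0.508, interval -2.44 to -0.27, edgeR adjusted p 0.62) from 70 UMIs in all. No early and late pool share a batch. In motor cortex the change of late over early was 0.25 (interval -0.70 to 1.19). With batch as a block over all 12 pools, a change shared by both regions was fitted, at -0.36 (interval -1.73 to 1.02). That fit tested 4 members and called 0 in each stage comparison, beside 0.0831%, 0% and 0% of 2406 genes for early over control, late over control and late over early, with 0 members at an unadjusted p under 0.05 and 0 by DESeq2.

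No member was called between regions. Among 9242 genes, 0.822% were called between striatum and motor cortex in microglia-like cells, and 0 of 9 members, with 0 at an unadjusted p under 0.05, 0 by DESeq2 and 0 with batch as a block. The largest differences were Gpr84, at -0.27 (interval -0.81 to 0.27), Trem2, at 0.23 (-0.03 to 0.48), and Sall1, at 0.22 (-0.06 to 0.50). Hemispheres, labelled contralateral and ipsilateral, were then set against each other pool by pool in trained mice (4 pools a region). In motor cortex 0.0574% of 8708 genes and 0 members were called, and member changes lay between -0.08 and 0.06. In striatum 0% of 7034 genes and 0 members were called, with changes of 0.01 to 0.21. At an unadjusted p under 0.05 there were 0 members in both regions, and 0 by DESeq2.

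The members did differ between cells of the same pool that held more or less Tnf and Ccl3, a tumour necrosis factor and a chemokine. Most microglia-like cells held at least 5 UMIs of the 2 genes together (53.7% to 87.8% of cells per pool), and 1.82% to 21.1% held none. Cells with 5 or more were compared with cells with 0, pool by pool, where each group had at least 20 cells. This left all 6 pools in motor cortex and 4 in striatum. Early pool 2 and late pool 1 of striatum had only 17 and 16 cells without a UMI. Groups were cut on measured Tnf and Ccl3, so those genes are no result, and the groups are ranges along a gradient: 68 to 509 cells per pool held 4 to 6 UMIs.

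In motor cortex 6 of 9 members were lower in the cells with Tnf and Ccl3 (P2ry12, Tmem119, Cx3cr1, Gpr34, Selplg and Sall1), beside 4.94% of 6763 genes called lower. Gpr84 was higher, beside 11.4% of genes called higher. Siglech and Trem2 were not called. In striatum Tmem119, Cx3cr1 and Sall1 were lower, beside 1.17% of 5989 genes, and Gpr84 was higher, beside 6.41%. The median change of all genes was -0.00 and 0.03, and of the members -0.44 and -0.28.

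Tmem119 showed the clearest separation. In cells with 0 UMIs it was at 1098 to 1624.5 CPM in the 6 motor cortex pools, with a mean of 1382 ± 210.2 (SD, n = 6). In cells with 5 or more it was at 457.8 to 918.9, with a mean of 740.5 ± 162.3 (SD, n = 6). Every pool with cytokine UMIs lay below every pool without. The log2 change was -0.73 (SE 0.0841, edgeR adjusted p 4.22e-11). In striatum it went from 1263, 1270.4, 1460.3 and 1059.7 to 907.0, 550.7, 667.9 and 622.0 in control 1, control 2, early 1 and late 2, a change of -0.66 (SE 0.15, edgeR adjusted p 0.00194). The striatal call was lost with no filter on low counts (-0.38, edgeR adjusted p 0.213).

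P2ry12 was at 2177, 2549, 2462, 1966, 2302 and 2408 in motor cortex cells with 0 UMIs (control 1 and 2, early 1 and 2, late 1 and 2) and at 1676.5, 1779, 1638, 1113, 1445 and 1348 in those with 5 or more. The groups did not overlap, and the change was -0.44 (SE 0.0748, edgeR adjusted p 2.89e-06). In striatum it was lower in 3 of 4 pools and went from 1406 to 1687 in control pool 1, and the change of -0.16 was not called (SE 0.139, edgeR adjusted p 0.569). Cx3cr1 was lower in every pool of both regions, with means of 2627 ± 458.8 and 1678 ± 299.2 (SD, n = 6) in motor cortex and 2835 ± 969.8 and 1736 ± 381.4 (SD, n = 4) in striatum. In motor cortex it changed by -0.44 (SE 0.0734, edgeR adjusted p 1.39e-06). The striatal change was -0.43 (SE 0.123, edgeR adjusted p 0.0198), and it lost its call without any 1 of the 4 pools and with DESeq2 (adjusted p 0.0852). It was called in 7 of 17 alternatives.

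Selplg was lower in every pool too, by -0.48 in motor cortex (SE 0.0774, edgeR adjusted p 8.06e-07) and by -0.37 in striatum, where it was not called (SE 0.13, edgeR adjusted p 0.0755). Gpr34 changed by -0.37 (SE 0.0809, edgeR adjusted p 0.000267) in motor cortex and by -0.28, not called, in striatum (edgeR adjusted p 0.308). Striatal control pool 1 went the other way, from 799.1 to 925.7. The motor cortex call of Gpr34 was lost with no filter on low counts (-0.18, edgeR adjusted p 0.229). In striatum, P2ry12, Selplg and Gpr34 were called lower in 2, 5 and 3 of 17 alternatives, among them total counts and the split on Tnf alone. Sall1, the transcription factor, was lower in 5 of 6 motor cortex pools and in 4 of 4 striatal pools. The motor cortex change was -0.69 (SE 0.131, edgeR adjusted p 3.02e-05). In striatum it was -0.73 (SE 0.221, edgeR adjusted p 0.0287), and -0.69 and -0.42, not called, without control pool 1 and early pool 1. This striatal call held in 6 of 17 alternatives. The adjusted p was 0.174 with DESeq2, and with edgeR it was 0.478 with no filter on low counts and 0.1 with doublets kept. With cells thinned to 1000 UMIs and groups cut anew at 2 or more against 0 UMIs, the edgeR adjusted p was 0.0834. In the striatal pools not fitted, Sall1 was at 160.8 and 50.9 with 0 UMIs and at 162.5 and 52.3 with 5 or more. The values with 0 UMIs rest on 5 Sall1 UMIs in 17 cells and 1 in 16 cells. Control pool 1 of motor cortex went the other way, from 57.8 (3 Sall1 UMIs in 39 cells) to 63.0.

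Gpr84 was the 1 member called higher. It was at 1059.5, 721.8, 641.2, 753.1, 842.1 and 1155 in motor cortex cells with 0 UMIs and at 904.4, 1495, 1366, 1949, 1197 and 1718 in those with 5 or more. It was higher in 5 of 6 pools, with a change of 0.96 (SE 0.0982, edgeR adjusted p 5.67e-13). Over 20 alternatives the change was 0.501 (5 or more against 4 or fewer UMIs) to 1.35 (stricter cell filter), called in each. In striatum it went from 927.0, 1016.3, 159.5 and 1040.4 to 740.8, 1669, 674.7 and 1499.5 in control 1, control 2, early 1 and late 2. The change was 1.01 (SE 0.193, edgeR adjusted p 0.000214), and 0.51, not called, without early pool 1. DESeq2 did not call it either (adjusted p 0.125). Among the pools fitted, control pool 1 of each region went the other way, and both are of kit class A. Striatal early pool 2, of class B and not fitted, also did, from 2122.9 in 17 cells to 1469.9. Late pool 1 of motor cortex, also class A, rose from 842.1 to 1197. That of striatum, class A and not fitted, rose from 763.3 in 16 cells to 872.0. In striatal class B pools alone the change was 1.49. With cells thinned to 1000 UMIs and groups cut anew at 2 or more against 0 UMIs, it was 0.44. Depth and threshold both differ in that setting.

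Siglech and Trem2 had the smallest changes in motor cortex. Siglech changed by -0.03 (interval -0.19 to 0.13) in motor cortex and -0.07 (-0.34 to 0.20) in striatum. Trem2 changed by 0.00 (-0.14 to 0.15) and 0.19 (-0.04 to 0.43). With no filter on low counts, striatal Trem2 was called higher (0.475, edgeR adjusted p 0.00714). These values also depend on the scaling. In CPM, both were lower in cells with 5 or more UMIs in each of the 6 motor cortex and 4 striatal pools fitted. In the striatal pools that were not fitted, Trem2 was higher in both (from 1833.4 to 2131.6 in early pool 2 and from 2239.1 to 2288.3 in late pool 1). Siglech rose from 1286.6 to 1316.0 in early pool 2 and fell from 1628.4 to 866.9 in late pool 1. The groups with 0 UMIs held 17 and 16 cells there. With cells scaled to their total counts in place of TMM, the median change of all genes was -0.19 (motor cortex) and -0.21 (striatum). The split of genes called turned from 769 higher and 334 lower to 516 and 973 in motor cortex, and from 384 and 70 to 233 and 271 in striatum. On that scale Siglech (-0.24, edgeR adjusted p 0.019) and Trem2 (-0.21, edgeR adjusted p 0.0227) were called lower in motor cortex, close to the median gene. The 6 members called lower and Gpr84 kept their sign and their call on both scales in motor cortex.

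**Figure D4:**
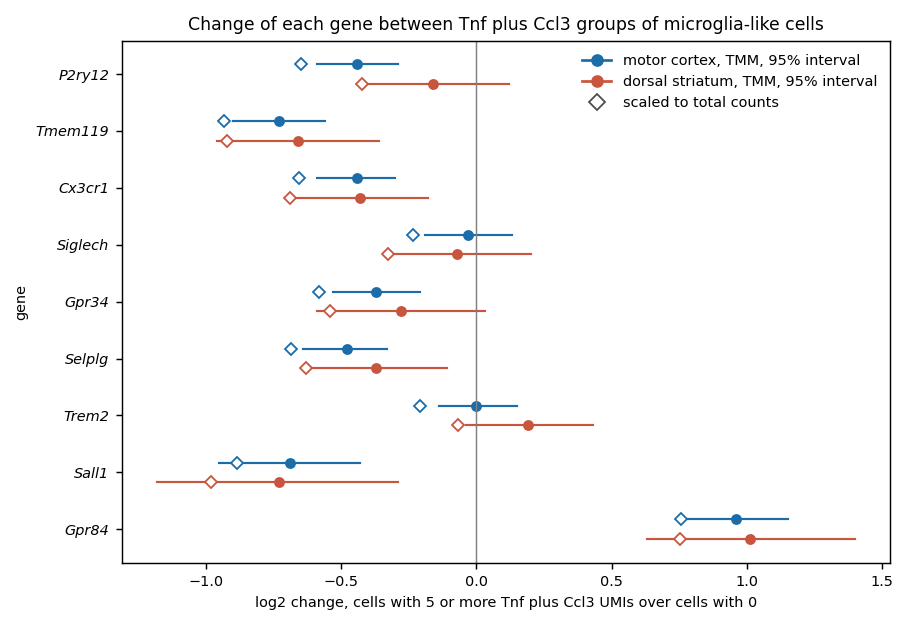
Log2 change of each member (y axis) in cells with 5 or more Tnf plus Ccl3 UMIs over cells with 0 (x axis). Dots with 95% intervals use TMM scaling, and open diamonds use total counts. Tmem119 and Sall1 have the lowest dots in both regions, and Gpr84 is the one member to the right of 0 on both scales.

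No member was called in a test of the difference between regions. The difference of the 2 changes was tested for 6144 genes, of which 0.0163% (1 gene, Mbp) were called, and no member was. At an unadjusted p under 0.05 there were 0 members, and 0 by DESeq2. The difference was 0.28 for P2ry12 (interval -0.02 to 0.59) and 0.21 for Trem2 (-0.03 to 0.46), striatum over motor cortex, and between -0.09 and 0.13 for the other 7.

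The levels fell in steps. With 1 to 4, 5 to 19 and 20 or more UMIs, the median over the 6 motor cortex pools was 1289.8, 958.6 and 528.5 for Tmem119, beside 1416 in cells with 0. P2ry12 went through 2355, 2166, 1730.2 and 1320.5 over the 4 ranges, and Cx3cr1 through 2743, 2533, 2106 and 1331. For P2ry12, Tmem119, Cx3cr1, Gpr34, Selplg and Sall1, the level fell at each step from 1 to 4 up to 20 or more in 6 of 6 motor cortex pools. In striatum it fell at each step in 6 of 6 pools for Cx3cr1, in 5 for P2ry12 and Gpr34, and in 4 for Tmem119, Selplg and Sall1.

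Tmem119 at 20 or more UMIs was 0.263 to 0.657 times its level at 1 to 4 in the motor cortex pools, with a median of 0.416. The medians for the others were 0.547 for Sall1, 0.549 for Cx3cr1, 0.558 for Selplg, 0.611 for P2ry12 and 0.644 for Gpr34. For Siglech and Trem2 they were 0.828 and 0.852. The ratio of the median gene was 0.835 to 0.954 over the same pools, with a median of 0.89 (genes with at least 50 UMIs in the 3 ranges of a pool), so the CPM of the median gene fell too. Of those genes, 25.6% to 39.1% fell at each step in a motor cortex pool and 24.1% to 35.6% in a striatal pool. Gpr84 had a median ratio of 1.15 and rose at each of these steps in 0 of 6 pools. Its median was 797.6 in cells with 0 and 1270.4 in cells with 1 to 4 UMIs. With cells thinned to 1000 UMIs after the ranges were cut on full counts, the median ratios were 0.353 for Tmem119, 0.561 for P2ry12 and 1.17 for Gpr84. Thinning in this order keeps the same cells in each range, so it does not take depth out of the ranges.

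**Figure D5:**
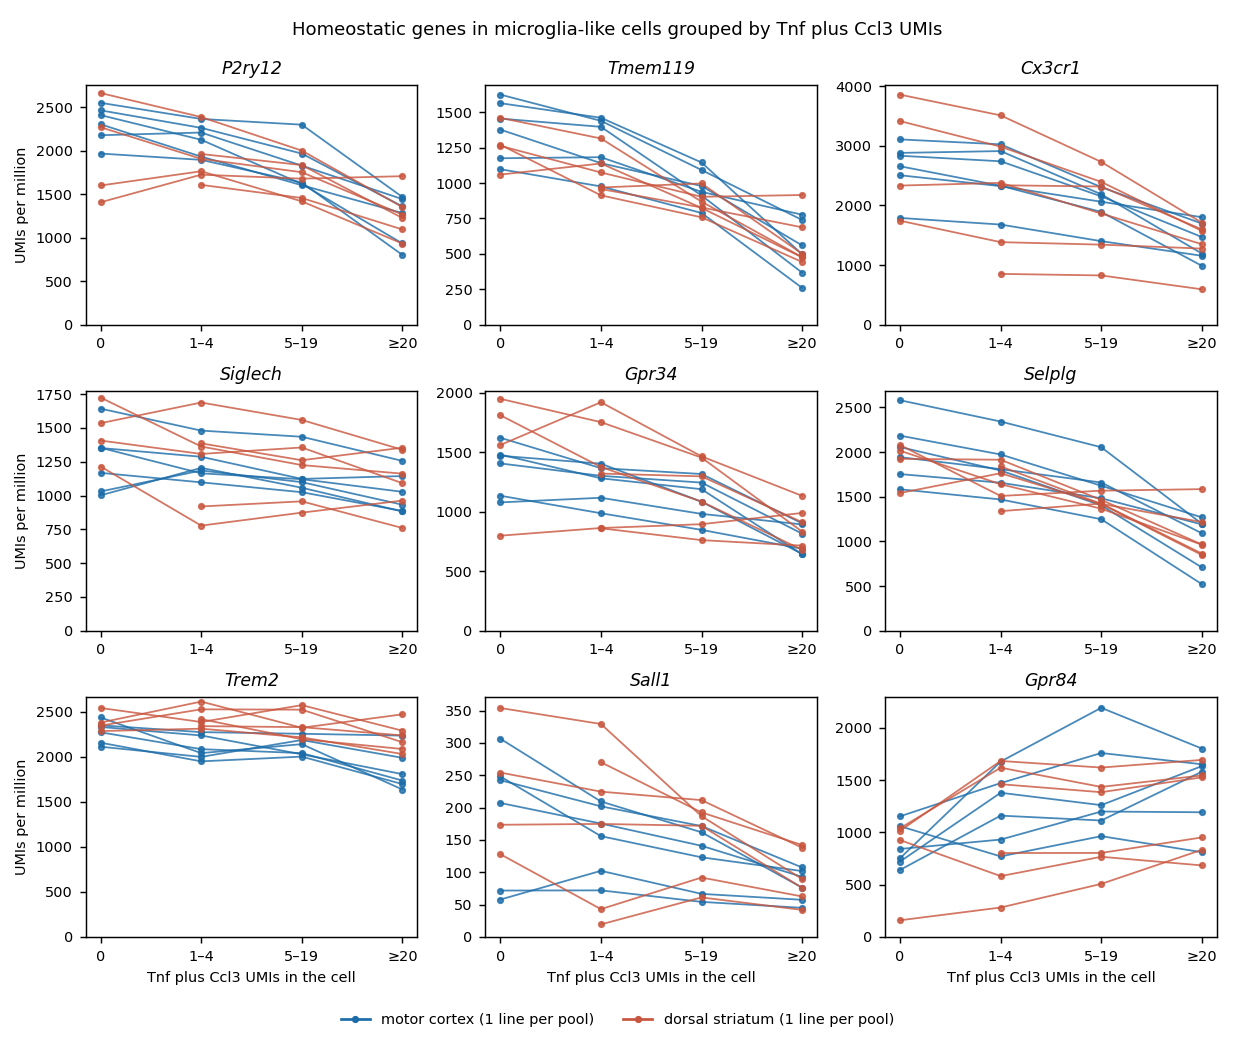
Level of each member (y axis, CPM) in microglia-like cells with 0, 1 to 4, 5 to 19 and 20 or more UMIs of Tnf plus Ccl3 (x axis), 1 line per pool with at least 20 cells in the range. Tmem119 and P2ry12 fall along the axis in nearly all pools, and Trem2 changes less. Gpr84 steps up after 0 in most pools, but steps down in control pool 1 of each region.

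Other measures moved with these groups. The median depth of a microglia-like cell rose from 1194 UMIs in cells with 0 to 1622 in cells with 20 or more in motor cortex control pool 1, and from 2538 to 3012 in early pool 1, the deepest. Mitochondrial share was 1.08% to 3.46% in cells with 0 and 1.26% to 3.78% in cells with 5 or more over the 6 motor cortex pools. Of 20 genes set off by dissociation and early activation, 10 were called higher and 5 lower in motor cortex (beside 11.4% and 4.94% of all genes), with Klf2 at 1.76 and Klf6 at 0.84, and 3 higher and 3 lower in striatum (beside 6.41% and 1.17%). The part of dissociation in the fall of the members was not tested.

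Markers of other cells were summed in the same groups. The 9 macrophage markers summed to 57.8 to 233.0 CPM in motor cortex cells with 0 UMIs and 143.6 to 202.6 in cells with 5 or more, and the 4 neuron markers to 156.6 to 375.9 and 146.0 to 342.0. The neutrophil markers were at 0 in both, and the monocyte markers reached 25.9 and 8.58. In the 4 striatal pools fitted, macrophage markers summed to 173.4 to 254.1 with 0 UMIs and 145.9 to 163.8 with 5 or more, and neuron markers to 54.4 to 266.6 and 108.7 to 259.9. Oligodendrocyte markers summed to 95.9 to 211.9 and 45 to 58.7, and astrocyte markers to 15 to 199.6 and 38.2 to 60.6. The groups did not overlap for macrophage and oligodendrocyte markers, which were lower with 5 or more UMIs in each of these 4 pools. Monocyte and neutrophil markers reached 57.8 and 18.1 in striatal cells with 0 UMIs, and 9.03 and 0 in those with 5 or more. The myelin gene Mbp was called higher in motor cortex (0.92) and lower in striatum (-1.30). The part of these cells in the members' changes was not tested.

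Of 20 cytokine and NF-kB genes, 20 were called higher in motor cortex and 15 in striatum, with a median of 1.04 and 1.14. Ccl4, a chemokine gene next to Ccl3, rose by 2.89 and 2.91, Cxcl2 by 3.67 and 2.96, and the survival gene Bcl2a1b by 1.75 and 1.98. The groups were cut on Tnf and Ccl3, which these genes accompany, so their rise is no independent result. Of 30 other homeostatic genes, 7 were called lower and 1 higher in motor cortex, with a median of -0.11, beside 4.94% and 11.4% of all genes. In striatum 2 were called lower and 1 higher, with a median of -0.02, beside 1.17% and 6.41%. P2ry13, a purine receptor like P2ry12, fell by 0.71 and 0.79, while Cst3, which makes cystatin C, rose by 0.29 and 0.47. Of 11 disease-associated genes tested (of 18), 6 were called higher and 1 lower in motor cortex, beside 11.4% and 4.94% of all genes. In striatum 6 were called higher, beside 6.41%. Fth1, the ferritin heavy chain, rose by 0.99 and 1.35, Cd63, a lysosomal membrane protein, by 0.79 and 1.14, and the growth factor Csf1 by 1.88 in motor cortex.

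In macrophage-like cells the groups were too small for that contrast, with 4 to 18 cells per pool that held no UMI. With 5 or more set against 4 or fewer UMIs, P2ry12 was at 68.6 ± 21.9 and 109.2 ± 33.4 (SD, n = 6) in motor cortex, lower in 4 of 6 pools. Trem2 was at 511.8 ± 111.6 and 628.6 ± 161.0 (SD, n = 6), also lower in 4 of 6, and in striatum it was higher in 4 of 6 pools. Gpr34 was lower in 6 of 6 motor cortex pools and higher in 6 of 6 striatal pools, from 106 and 63 UMIs in all. The ranges overlapped for all 9 members, and no test was run.

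Clusters of microglia-like cells, formed without the members, also differed. In class B cells of motor cortex, cluster 9, where 1396 of 1909 cells held 20 or more UMIs, had Tmem119 at 271.4 and P2ry12 at 899.9 CPM, and cluster 5, where 442 of 3024 cells did, had 1215 and 2217. In striatum cluster 13 had 275.8 and 866.2, and cluster 11 had 1186 and 2255. In class A cells of motor cortex, cluster 10 (940 of 1841 cells with 20 or more) had 496.2 and 987.7, and cluster 3 (718 of 3417) had 1270.0 and 1897. Gpr84 was higher in cluster 9 than in cluster 5 (1628 and 1334) and in striatal cluster 13 than in cluster 11 (1432 and 1088), but in class A it was lower in cluster 10 than in cluster 3 (681.7 and 1332). Trem2 and Siglech were also lower in cluster 10 (1411 and 678.9) than in cluster 3 (2297 and 1160). These are descriptions over pooled cells, with no test.

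Promoters of members called in motor cortex are shown so that members that fell together can be set beside Gpr84, which rose, and beside Tnf and Ccl3. RefSeq promoters (GRCm38.p6, 250 bases before to 50 after the start) were at hand for 6 of 9 members and for Tnf and Ccl3. Each was searched on both strands for GAGGAAG, a core of sites for the myeloid factor PU.1, for TGANTCA, an AP-1 site, and for GGGANTTTC, a form of the NF-kB site. Of all 32851 promoters, 13.6%, 7.81% and 1.11% hold them. Capitals mark matches, no matches overlap, and all sequences run 5′ to 3′ on the gene's strand. P2ry12 (chr3:59262936-59263235, minus strand), Cx3cr1 (chr9:120068247-120068546, minus) and Sall1 (chr8:89044113-89044412, minus, 1 of 3 listed starts) fell. Gpr84 (chr15:103310389-103310688, minus) rose. Tnf (chr17:35201958-35202257, minus) and Ccl3 (chr11:83649329-83649628, minus) set the groups.
P2ry12: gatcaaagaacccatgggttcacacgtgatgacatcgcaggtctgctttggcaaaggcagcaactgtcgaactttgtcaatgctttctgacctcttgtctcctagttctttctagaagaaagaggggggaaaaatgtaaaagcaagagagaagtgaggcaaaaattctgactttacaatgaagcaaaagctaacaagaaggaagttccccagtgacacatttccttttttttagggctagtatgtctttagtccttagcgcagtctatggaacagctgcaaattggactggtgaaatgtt
Cx3cr1: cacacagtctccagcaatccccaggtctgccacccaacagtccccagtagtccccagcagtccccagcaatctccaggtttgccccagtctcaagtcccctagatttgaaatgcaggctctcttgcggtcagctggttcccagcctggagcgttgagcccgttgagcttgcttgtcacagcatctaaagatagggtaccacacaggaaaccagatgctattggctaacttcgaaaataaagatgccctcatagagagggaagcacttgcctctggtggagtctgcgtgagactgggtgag
Sall1: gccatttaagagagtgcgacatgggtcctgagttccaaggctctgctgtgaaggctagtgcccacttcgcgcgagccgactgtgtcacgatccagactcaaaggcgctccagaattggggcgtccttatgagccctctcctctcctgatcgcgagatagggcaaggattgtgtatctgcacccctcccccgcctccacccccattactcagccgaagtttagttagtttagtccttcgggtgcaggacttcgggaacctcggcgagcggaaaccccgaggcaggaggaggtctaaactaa
Gpr84: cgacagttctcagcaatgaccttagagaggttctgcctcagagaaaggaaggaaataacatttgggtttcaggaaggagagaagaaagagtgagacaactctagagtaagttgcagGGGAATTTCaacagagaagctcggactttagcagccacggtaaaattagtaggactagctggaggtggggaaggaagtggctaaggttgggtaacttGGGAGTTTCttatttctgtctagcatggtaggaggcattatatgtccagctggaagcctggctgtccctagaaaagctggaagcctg
Tnf: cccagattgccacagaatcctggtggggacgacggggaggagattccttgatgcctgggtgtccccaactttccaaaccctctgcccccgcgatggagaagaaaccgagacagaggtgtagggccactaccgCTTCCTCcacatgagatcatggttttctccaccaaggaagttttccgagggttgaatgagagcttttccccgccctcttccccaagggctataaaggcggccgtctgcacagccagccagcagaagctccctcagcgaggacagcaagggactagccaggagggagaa
Ccl3: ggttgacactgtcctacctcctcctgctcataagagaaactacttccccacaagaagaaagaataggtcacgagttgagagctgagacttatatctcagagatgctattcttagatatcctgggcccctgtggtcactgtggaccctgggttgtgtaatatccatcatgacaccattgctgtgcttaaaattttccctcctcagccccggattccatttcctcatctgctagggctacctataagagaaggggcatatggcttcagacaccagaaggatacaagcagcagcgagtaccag

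Gpr84 held 2 matches to the NF-kB letters, GGGAATTTC from 134 to 126 bases and GGGAGTTTC from 37 to 29 bases before its start. It was the sole gene of these 8 with such a match. Tnf held 1 match to the PU.1 letters on the reverse strand, 118 to 112 bases before its start. Trem2 held 1 PU.1 match and 1 AP-1 match in the last 41 bases before its start. The other windows, 7 of 10, held no match, which says only that these letters are not in them.

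The genes most like the members were found over 136 sums of a class and pool, by Pearson's r of log2 values among 20892 genes. Classes, libraries and depth are shared between these points, so r is a description of which cells hold a gene. Siglech was most like P2ry13 (0.921), Gpr34 like Susd3 (0.939), Trem2 like Fcgr3 (0.932), and Tmem119 like Olfml3 (0.847). Selplg was most like Ctss (0.902), P2ry12 like Il1a (0.916) and Gpr84 like Gm46224 (0.893). Sall1, which astrocyte-like cells share, had the lowest value, 0.644 with 4632427E13Rik.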

How the data were processed

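Single-cell 3' RNA libraries were made with a 10x kit whose version differed between libraries and is not given for each. The authors deposited raw counts of UMIs per gene and barcode. Software version 3.0.2 is named in the file headers, and Cell Ranger 3.1.0 and GRCm38 (mm10) in the submitters' processing notes.

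Barcodes needed 500 genes, 1000 UMIs and no more than 20% mitochondrial UMIs. Scrublet's top-scoring 0.8% per 1000 barcodes were removed (5103 cells). Leiden clusters (scanpy 1.11.5) were named from markers, by rules adjusted with the clusters in view but without the levels compared here. UMIs were summed per pool and class and fitted with edgeR 4.0.16 (quasi-likelihood, TMM, filterByExpr). Terms were stage and kit class, with region added where the regions were compared. The stage fit over all pools had region, stage and the labelled batch. Fits of hemispheres and of Tnf plus Ccl3 groups had the pool as a block. Adjusted p is Benjamini-Hochberg over all genes of a fit, and a gene is called under 0.05. Alternatives included DESeq2 1.42.0 and each pool left out. In the Tnf plus Ccl3 contrast with thinned cells, groups were cut anew on the thinned counts, at 2 or more against 0 UMIs. Scripts were tested on simulated data.

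All 9 members are named whatever their values. Of every other list, up to 3 called genes of lowest adjusted p are named in a comparison. Some genes that these rules would name, and the gene most like Cx3cr1, are not reported here. Members and lists were chosen with earlier results of these data known.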

Additional observations from a re-analysis of the deposited data

Results flagged for a closer look

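Gpr34 in macrophage-like cells went opposite ways in the regions. Cells with 5 or more Tnf plus Ccl3 UMIs had a mean level 51.2 CPM lower than cells with 4 or fewer in motor cortex (a difference of -51.2, lower in 6 of 6 pools) and 61.2 CPM higher in striatum (higher in 6 of 6 pools). The difference between regions was not tested. The counts were small, with 106 Gpr34 UMIs in motor cortex and 63 in striatum over all pools. The striatal groups with 4 or fewer held 14 to 30 cells per pool. How many of all genes show such a pattern was not counted. In striatum the T and NK cell markers summed to 114.7 to 2868 CPM in macrophage-like cells with 0 UMIs and were at 0 in those with 5 or more. B cell and monocyte markers reached 1396 and 1614 with 0 UMIs, and 0 and 33.8 with 5 or more. Macrophage markers summed to 3036 to 13997 and 9480 to 12355. The part of those other cells was not tested. In 45 tests of single libraries within a group, of which chance flags about 1 in 20, no microglia-like level of a member stood apart.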

How the results depend on the processing

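Leaving out 1 pool at a time gave 0 to 1 members called in striatal microglia-like cells, against 0 with all pools, both between early and control pools and between late and early pools. The 1 was Gpr84, without early pool 2. The other 20 comparisons with 0 members called, 6 of them with the labelled batch as a block, kept 0 under each alternative run. With a replicate block (pool number, which follows record order and pairs nothing) in place of kit class, 0 members and 0 genes were called between stages in microglia-like cells.

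The number of members called lower with Tnf and Ccl3 in striatum was 3. It was 0 with no filter on low counts. It was 1 with DESeq2, at 2 or more UMIs, with doublets kept and in class B pools only. It was also 1 with cells thinned to 1000 UMIs and cut anew at 2 or more against 0, and 6 with Tnf alone or total counts. Leaving out a pool gave 1 to 2, with the 1 from control pool 1 or early pool 1. The number called higher was 1. It was 2 with no filter, 0 with DESeq2, 0 with 5 or more against 4 or fewer UMIs, and 0 to 1 with a pool left out (0 without early pool 1). In motor cortex 5 to 8 members were called lower (6 as fitted) and 1 higher under each alternative run. Over 20 alternatives, changes there ran from -0.648 to -0.242 for P2ry12, -0.656 to -0.248 for Cx3cr1 and -0.687 to -0.284 for Selplg. They ran from -0.883 to -0.326 for Sall1 and -0.94 to -0.438 for Tmem119, and all were called. The weakest came with no filter on low counts, or with Tnf alone for Sall1 and Tmem119. Trem2 there turned from 0.00163 to -0.208 with total counts. Causes were not tested.

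Genes called with Tnf and Ccl3 numbered 463 with the stricter cell filter to 1795 with 4 or fewer UMIs as the low group in motor cortex (1103 as fitted), and 121 with DESeq2 to 758 with no filter in striatum (454), with 98 to 557 when a pool was left out. Between regions they numbered 1 in cells with 0 UMIs to 781 with doublets kept (76). Between stages in microglia-like cells, 23 to 82 genes were called per comparison with no filter, and up to 99 with a pool left out. With batch as a block over all pools, 0 were called per comparison, 1 to 11 by DESeq2 in those with early pools, and up to 36 with a pool left out. Of 2472 alternative values of member changes, 250 were of opposite sign with neither value called. The stricter cell filter was not run for the striatal Tnf and Ccl3 contrast, where too few pools were left. Total counts, the 10-cell minimum, the groups of all pools, the thinned stage fits and the fits with batch were added after the data were seen. With 2 pools a stage, the width of the intervals limits what could be shown between stages.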
